A study of Mus musculus with 6 samples.

Results

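The genes described here are 10 components of endothelin signalling and of the transcription factor program it feeds in the mandibular arch: Edn1, Ece1, Ednra, Plcb3, Mef2c, Hand2, Hand1, Gsc, Gata3 and Barx1. They were chosen by symbol, and all 10 were found among the 21006 symbols of the count table. RNA was sequenced from branchial arches of mouse embryos at E11.5, in 3 libraries of double knockouts (DKO), which were Ehmt1f/f and also Ehmt2f/f, and 3 of controls, which were Ehmt1+/+ and also Ehmt2+/+. All 6 carried the Wnt1-cre transgene, which is active in premigratory neural crest, and the reporter genotype Rosa26 TdTomato/+, on which the dissociated cells were sorted. The labels call the replicates biological, without saying whether a library holds 1 embryo or several, and they name the whole branchial arches, so crest of the upper and the lower jaw is mixed. Ehmt1 and Ehmt2 encode GLP and G9a, the enzymes that mono- and dimethylate histone H3 at lysine 9. The comparison of DKO with control asks how the RNA of arch crest differs when both genes are floxed.

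In the arches, endothelin-1 is made by the surface epithelium, the pharyngeal endoderm and the mesodermal core, and not by the crest itself. Endothelin converting enzyme (Ece1) cuts its precursor, and the mature peptide binds the endothelin A receptor (Ednra) on crest cells, which signals through Gq family proteins and phospholipase C beta (Plcb3). In the nucleus, Mef2c and the Dlx5 and Dlx6 factors carry the signal on to Hand2, Hand1, Gsc, Gata3 and Barx1, and mouse embryos without the ligand or the receptor form upper jaw structures in place of the lower jaw.

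Total counts ran from 23414466 to 44538260 per library. Levels are given as TMM-scaled CPM (counts scaled to a common library total) with the SD over 3 libraries, and where 3 values of a group follow each other they stand in the order of replicates 1, 2 and 3. Differences are log2 fold changes of DKO over control from the quasi-likelihood test of edgeR over the 14555 genes that could be tested. Genes were called at a Benjamini-Hochberg adjusted p below 0.05. The floxed genes were lower in each DKO library: Ehmt2 lay between 119 and 140.4 CPM against 347 to 359.7 CPM in controls (-1.47 on the log2 scale, SE 0.08; adjusted p = 0.000208 by edgeR), and Ehmt1 between 133 and 168 CPM against 250.03 to 268 CPM (-0.81, SE 0.10; 0.00476). Counts of both genes include exons outside the floxed part. The highest DKO value of both was in replicate 3, which also lay nearest the controls on the first principal component. The 11 listed markers of arch crest and ectomesenchyme summed to 2153 to 2643 CPM in DKO and 2500 to 2903 CPM in control libraries. All 11 were above 1 CPM in at least 1 library, with Cdh11 at 591 ± 51.6, Prrx1 at 538 and Twist1 at 341 CPM in controls. All listed markers of endothelium, smooth muscle and neurons also reached 1 CPM, so this threshold does not tell crest from other cells.

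Hand1 was the single member that passed the test. Of the 10 members, 1 was called lower and 0 were called higher, against 0.818% and 2.19% of all tested genes (3.01% in either direction). Before adjustment, 4 members had p below 0.05 (Hand1, Gata3, Ece1 and Plcb3), all of them lower in DKO, against 9.89% of all tested genes, and 0 were higher, against 11%. DESeq2 and limma-voom also called 0 higher. In 3 members (Hand1, Gata3 and Ece1) every DKO library lay below every control library, against 12.7% of all tested genes, and in 0 members did every DKO library lie above, against 14.5%. The median log2 fold change was -0.14 over the members and -0.01 over all tested genes, with 6 members negative and 4 positive, where 51.2% of all tested genes were negative. In these bulk libraries fewer cells of a type and less RNA per cell cannot be told apart. Because the libraries hold cells of all arches and of both jaws, the same holds for a smaller share of distal cells.

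**Figure D1:**
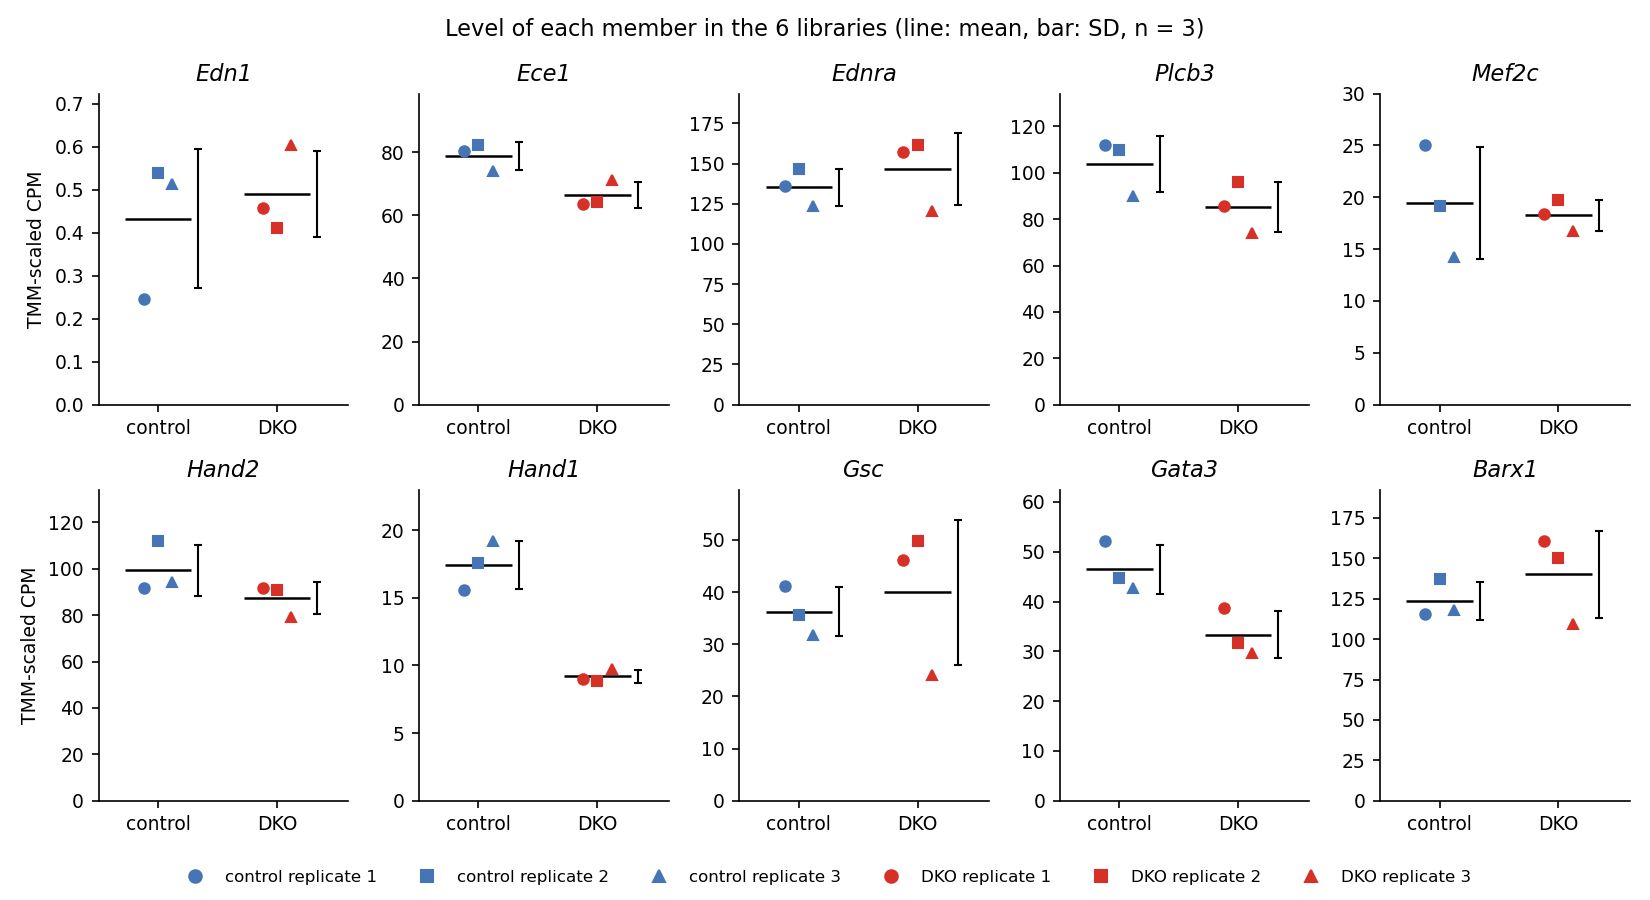
TMM-scaled CPM of each member (vertical axes, linear and starting at 0) in the 3 control and the 3 DKO libraries, with 1 symbol per replicate number, the mean as a line and the SD as a bar beside it. Hand1 shows a wide gap between the groups, Gata3 and Ece1 show narrow gaps, and the other 7 genes overlap.

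Members differed widely in abundance. Per kilobase of exon in the GENCODE M21 basic annotation, Barx1 was highest in controls (88.3 ± 8.38 CPM per kb), followed by Hand2 (42.2 ± 4.66), Ednra (37.3 ± 3.21), Gsc (28.6 ± 3.69), Plcb3 (24.4 ± 2.82), Ece1 (16.4 ± 0.905), Gata3 (14.5 ± 1.54), Hand1 (8.73 ± 0.905), Mef2c (2.66 ± 0.737) and Edn1 (0.202 ± 0.0757; SD, n = 3 each). Of these neighbours, Hand2 and Ednra, Gsc and Plcb3, and Ece1 and Gata3 overlapped between libraries, and the other neighbours did not. In DKO the order was the same except that Ednra (40.4 ± 6.19) stood before Hand2 (37.1 ± 2.94), with overlapping libraries. Hand2 and Gsc, and Gsc and Plcb3, overlapped there as well. The receptor thus stood among the most abundant members and the ligand at the bottom. Mef2c has 13 transcripts in this annotation, and the joined length of their exons lowers its value per kb.

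**Figure D2:**
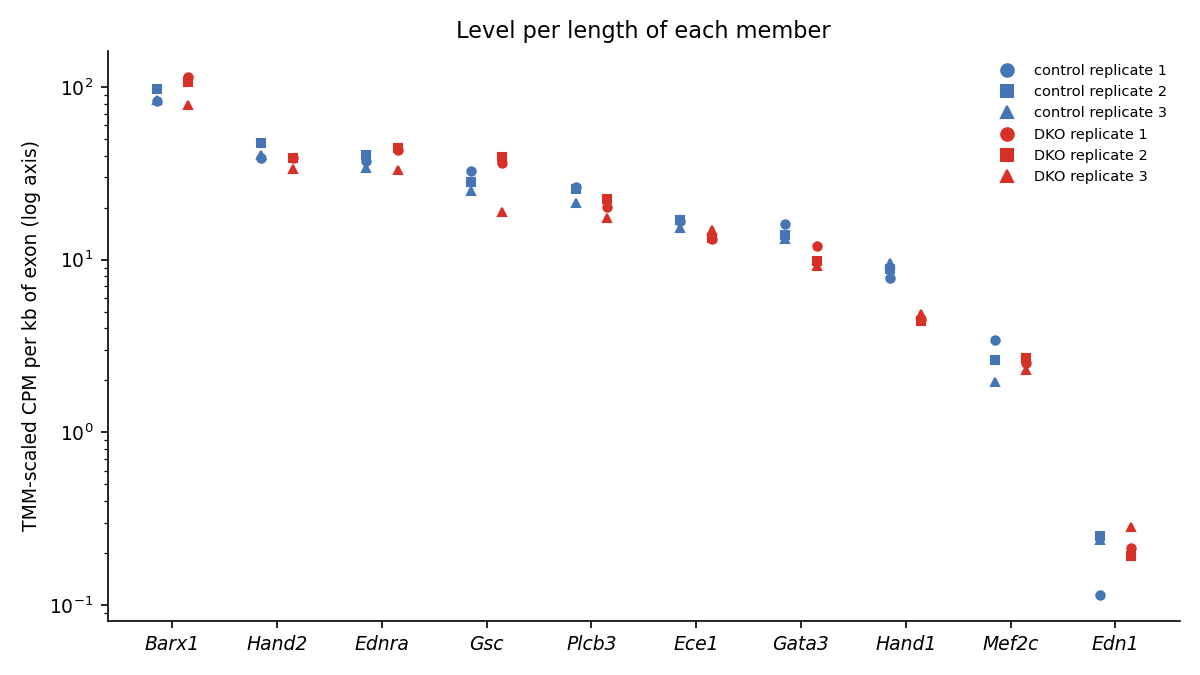
TMM-scaled CPM per kb of exon (vertical log axis) of the 10 members, ordered by the control mean, in each of the 6 libraries. Barx1 lies highest and Edn1 lowest in both groups, and Hand1 is the gene whose DKO and control points stand farthest apart.

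The ligand gene Edn1 (chromosome 13, 42301476 to 42307990, mm10) was close to absent from the sorted cells. The DKO libraries held 17, 18 and 27 of its counts, and the control libraries 11, 12 and 15. These are 0.458, 0.411 and 0.603 CPM in DKO and 0.246, 0.538 and 0.513 CPM in controls. The groups overlapped, with control replicate 1 lowest and DKO replicate 3 highest. The log2 fold change was 0.24 (SE 0.39; edgeR adjusted p = 0.771), with a 95% confidence interval from 0.636-fold to 2.20-fold of the control level, which is the precision this depth gives. Without control replicate 1 the sign turned (-0.083). Markers of epithelium, a tissue that makes the ligand, summed to 19.6 to 34.9 CPM in DKO and 23.9 to 28.9 CPM in controls over 10 genes. Of these 10 markers 0 were called by edgeR, DESeq2 or limma-voom, and 5 of 10 log2 fold changes were negative, with a median of -0.0013. The 1 marker with an unadjusted p below 0.05 was Epcam, which averaged 3.79 CPM in DKO against 5.71 CPM in control libraries. Their part in the Edn1 value was not tested.

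Ece1 (chromosome 4, 137862237 to 137965229), the protease that activates the ligand, was slightly lower in DKO without passing the test. Levels were 63.7, 64.3 and 71.2 CPM in DKO and 80.5, 82.1 and 73.9 CPM in control libraries. The highest DKO library lay just below the lowest control library. Its log2 fold change was -0.25 (SE 0.08, 95% interval -0.43 to -0.07; edgeR adjusted p = 0.134). Its paralog Ece2, a related converting enzyme gene, rose from 5.22 ± 1.0002 (SD, n = 3) to 11.2 ± 1.67 CPM. This is a log2 fold change of 1.09 with SE 0.19 and an edgeR adjusted p of 0.0213. Ece2 measured 10.5, 13.1 and 9.99 CPM in DKO and 6.37, 4.71 and 4.58 CPM in controls, with no overlap. The Ece2 call held in 2 of 6 fits that left out 1 library, and the log2 fold change stayed between 0.96 and 1.28.

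The other genes of the endothelin system gave no further call. Of 5 tested genes, 1 rose and 0 fell, with a median log2 fold change of 0.34, where 2.19% of all tested genes rose. At an unadjusted p below 0.05, 3 were higher (11% of all tested genes) and 0 lower (9.89%). DESeq2 and limma-voom each called 1 higher and 0 lower. In 3 of the 5 every DKO library lay above every control, against 14.5% of all tested genes. Edn3, the ligand that acts on melanocyte and enteric crest, and Ecel1, an Ece-like protease gene, were also above control in every DKO library, at 34.6 against 27.4 CPM and 3.85 against 2.51 CPM, without a call (edgeR adjusted p = 0.171 and 0.144). The B receptor gene Ednrb had a log2 fold change of -0.28 (edgeR adjusted p = 0.312). Edn2 had 0 counts in all 6 libraries and Kel had 65 counts in all, and neither was tested.

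The receptor gene Ednra (chromosome 8, 77663029 to 77724452) overlapped between the groups. The DKO libraries had 157, 161 and 121 CPM, and the control libraries 136, 147 and 123 CPM. DKO replicates 1 and 2 lay above every control library, and DKO replicate 3 lay below all of them. This gave a log2 fold change of 0.11 (SE 0.12, 95% interval -0.16 to 0.39; edgeR adjusted p = 0.626). Leaving out DKO replicate 3 gave 0.24 (edgeR adjusted p = 0.13).

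Plcb3 (chromosome 19, 6953708 to 6975006), the phospholipase that relays Gq signals, tended the other way. It measured 85.5, 96.1 and 74.2 CPM in DKO and 112, 109.8 and 90.1 CPM in controls. Only DKO replicate 2 overlapped the controls, exceeding control replicate 3. Its log2 fold change was -0.29 (SE 0.12, 95% interval -0.55 to -0.02; edgeR adjusted p = 0.217). Of 19 other genes of Gq and calcium signalling, 0 were called (2 higher and 2 lower at an unadjusted p below 0.05; DESeq2 and limma-voom also called 0), with a median log2 fold change of 0.01. The list also holds Gna12 and Gna13, which encode alpha subunits of another G protein family than Gq. Its most abundant genes were Gnaq, a Gq alpha subunit gene at 157 CPM in DKO and 178 CPM in controls (log2 fold change -0.19), and Gna13 at 131 and 138 CPM (-0.07).

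Mef2c (chromosome 13, 83504017 to 83667079), the MADS box factor that crest needs to activate its distal genes, was not called. It measured 18.4, 19.7 and 16.7 CPM in DKO and 25.01, 19.1 and 14.3 CPM in controls. All 3 DKO libraries lay within the range of the controls, whose replicate 1 was highest and replicate 3 lowest. Its log2 fold change was -0.09 (SE 0.19, 95% interval -0.53 to 0.35; edgeR adjusted p = 0.823), and it turned to 0.14 without control replicate 1. Mef2c is also expressed in endothelium, muscle and heart, and markers of these cells were present at low levels. The 10 endothelial markers summed to 34.8 to 45.4 CPM in DKO and 20.3 to 29.3 CPM in controls. Of them 1 was called higher, the receptor gene Tie1 (8.05 against 0.965 CPM), and without Tie1 the sums overlapped. All 10 log2 fold changes were positive, with a median of 0.44. At an unadjusted p below 0.05, 3 were higher (11% of all tested genes) and 0 lower, and DESeq2 called 2 higher and limma-voom 1. Kdr, Tek and Erg had log2 fold changes of 0.25, 0.21 and 0.22 (edgeR adjusted p = 0.424, 0.736 and 0.841). The 10 muscle and mesoderm markers summed to 87.8 to 117.9 CPM and 89.9 to 104.6 CPM, with 0 of 9 tested called (0 at an unadjusted p below 0.05, and 0 by DESeq2 and limma-voom), and Pax7, also a crest gene, made up most of the sum. Their part in the Mef2c value was not tested.

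Hdac9, a class IIa histone deacetylase gene whose protein binds MEF2 factors and represses their targets, rose. Its levels were 42.01, 49.2 and 38.6 CPM in DKO and 25.03, 22.1 and 20.8 CPM in control libraries. The groups did not overlap, and the difference was 0.93 on the log2 scale (SE 0.12; adjusted p = 0.00621 by edgeR). The call held in each of the 6 fits that left out 1 library (log2 fold change 0.83 to 1.02). Of the 7 MEF2 and class IIa deacetylase genes tested, 1 rose and 0 fell, against 2.19% and 0.818% of all tested genes. At an unadjusted p below 0.05, 2 were higher and 0 lower, against 11% and 9.89%. DESeq2 and limma-voom called Hdac9 alone, and the median log2 fold change was -0.02. The most abundant others, Hdac7 and Hdac5, had log2 fold changes of -0.02 and -0.12.

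Hand2 (chromosome 8, 57320983 to 57324517), the basic helix-loop-helix factor that sets distal identity in the mandibular arch, was not called. It measured 91.8, 90.7 and 79.3 CPM in DKO and 91.5, 112 and 94.4 CPM in controls. DKO replicate 1 lay above control replicate 1, and the other DKO libraries lay below all controls. This was a log2 fold change of -0.18 (SE 0.10, 95% interval -0.41 to 0.04; edgeR adjusted p = 0.319). Of its exon bases, 461 (19.6%) are shared with Hand2os1 on the opposite strand. The strand setting of the counting is unknown here, so transcripts of the pair could be mixed in this value.

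Hand1 (chromosome 11, 57828713 to 57832147), the paralog of Hand2 that marks the distal midline cap of the mandibular arch, fell. The DKO libraries had 9.0, 8.84 and 9.72 CPM. The control libraries had 15.6, 17.5 and 19.2 CPM. All DKO values lay close together and far below the lowest control. The mean went from 17.4 ± 1.81 to 9.19 ± 0.47 CPM (SD, n = 3). On the log2 scale the difference was -0.92 (SE 0.12, 95% interval -1.20 to -0.64; edgeR adjusted p = 0.00776), or 47.2% less. The interval ran from 0.435-fold to 0.64-fold of the control level. Behind these levels were 334 to 435 counts per DKO library and 391 to 696 per control library. The call held in 5 of 6 fits that left out 1 library; without DKO replicate 1 the log2 fold change was -0.91 with edgeR adjusted p = 0.0502, and against a 1.5-fold threshold it was not called (adjusted p = 0.168).

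Hand1 is also a gene of the heart and of sympathetic neurons, so markers of these cells were set beside it. Of 7 heart markers 3 were tested, and all 3 rose: Tnni1 from 0.316 to 0.974 CPM (log2 fold change 1.63), Myh6 from 0.345 to 1.22 CPM (1.76) and Myh7 from 0.323 to 0.982 CPM (1.57; edgeR adjusted p = 0.0242, 0.0344 and 0.0495). Of all tested genes, 2.19% were called higher. Each of these 3 heart marker calls held in at most 1 of 6 fits that left out 1 library. Their sum over 7 genes was 3.58 to 4.27 CPM in DKO and 1.26 to 1.83 CPM in controls. The defining marker Nkx2-5 and 3 others stayed below 1 CPM in every library. Of 13 neuron markers, 0 rose and 1 fell, Pou4f1, a sensory neuron factor gene (-0.45 on the log2 scale, SE 0.09; adjusted p = 0.0306 by edgeR), and the sums overlapped, at 939.5 to 1065 CPM in DKO and 1030 to 1265 CPM in controls. The Pou4f1 call held in 1 of 6 fits that left out 1 library. Of the 13 log2 fold changes 11 were negative (51.2% of all tested genes were), with a median of -0.34. This is the direction of Hand1 and Gata3, and 9 of 11 arch crest markers were negative too. At an unadjusted p below 0.05, 4 neuron markers were lower (9.89% of all tested genes) and 0 higher (11%). DESeq2 called 2 of them lower and limma-voom 1. The sympathetic marker Dbh had a log2 fold change of -0.51 (edgeR adjusted p = 0.734). The part of heart cells and of neurons in the Hand1 value was not tested.

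Among genes with a mean of at least 1 CPM, the 3 whose log2 profile over the 6 libraries lay closest to that of Hand1 were Shcbp1, Rbfa and Ehmt1, with root mean square differences of 0.0789, 0.0954 and 0.0976. Shcbp1, which encodes a protein that binds the adaptor SHC1, fell from 64.5 to 37.0 CPM, and Rbfa, a ribosome binding factor gene, from 21.3 to 11.3 CPM. Their log2 fold changes were -0.80 and -0.92 (edgeR adjusted p = 0.00621 and 0.0231). With 1 library left out, the Shcbp1 call held in 6 of 6 fits and the Rbfa call in 2 of 6. With 2 groups of 3 libraries, such a likeness mostly restates a fall of similar size.

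**Figure D3:**
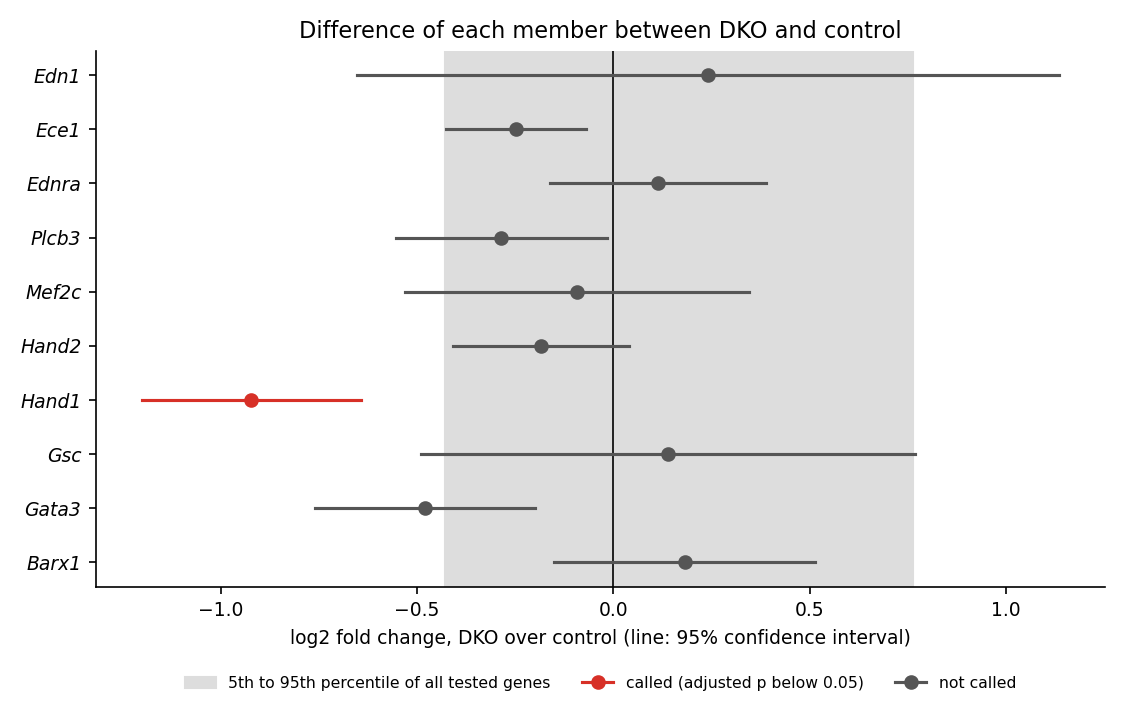
Log2 fold change of DKO over control (horizontal axis) for each member, with the 95% confidence interval as a line and the range between the 5th and 95th percentile of all tested genes shaded. The interval of Hand1, from -1.20 to -0.64, lies wholly outside the shaded range. The Gata3 estimate (-0.48) lies just below the lower edge, which its interval straddles. All the others are centred within the range, and the intervals of Edn1, Plcb3, Mef2c and Gsc also cross the lower edge.

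Gata3 (chromosome 2, 9857078 to 9887953), a zinc finger factor that acts downstream of Hand2 in the distal arch and is also active in sympathetic neurons, had the second largest difference of the 10 but missed the threshold. It stood at 38.6, 31.8 and 29.7 CPM in DKO libraries. In control libraries it stood at 52.1, 44.7 and 42.7 CPM. Every DKO library lay below every control. Its log2 fold change was -0.48 (SE 0.12, 95% interval -0.76 to -0.20; edgeR adjusted p = 0.0776). DESeq2 called it (log2 fold change -0.48, adjusted p = 0.0111), and limma-voom did not (adjusted p = 0.0821). An antisense gene on the opposite strand shares 155 of its exon bases (4.82%). The neuron marker Pou4f1 and the related gene Gata2, at 75.7 CPM in DKO and 85.03 CPM in controls (log2 fold change -0.17; edgeR adjusted p = 0.479), were lower in mean as well, and their part in the Gata3 value was not tested.

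RefSeq promoter windows (GRCm38.p6) were found for 9 of the 10 members, all but Hand1. Those of Hand2 and Gata3 are shown because Hand2 is known to act on the distal genes with Hand1 and because Gata3 came nearest to the threshold. Each is the 250 bases before a RefSeq transcription start, 5′ to 3′ on the gene's strand, at chr8:57320733-57320982 (plus strand) for Hand2 and chr2:9878601-9878850 (minus strand) for Gata3. Capitals mark E-boxes, the motif CANNTG bound by Hand proteins and other basic helix-loop-helix factors, searched on both strands.
Hand2: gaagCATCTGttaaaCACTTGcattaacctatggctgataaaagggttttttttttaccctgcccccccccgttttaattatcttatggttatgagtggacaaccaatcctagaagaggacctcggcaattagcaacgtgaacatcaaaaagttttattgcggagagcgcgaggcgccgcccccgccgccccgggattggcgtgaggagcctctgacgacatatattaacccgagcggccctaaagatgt
Gata3: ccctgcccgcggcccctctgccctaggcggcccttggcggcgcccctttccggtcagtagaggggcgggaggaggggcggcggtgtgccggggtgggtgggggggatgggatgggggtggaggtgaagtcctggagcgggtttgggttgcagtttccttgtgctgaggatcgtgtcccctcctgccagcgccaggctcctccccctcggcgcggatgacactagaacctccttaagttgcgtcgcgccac
The Hand2 window held 2 E-boxes and the Gata3 window 0, where 66.2% of all 32817 promoter windows of this length held at least 1. The Hand2 window also held 1 copy of TAATTA, a core that homeodomain factors such as the Dlx proteins bind, which 4.84% of all windows held (both strands; overlapping no E-box), and 1 of AGATAA, the motif of zinc finger factors such as Gata3, which overlaps that copy and was in 9.99% of all windows. The MEF2 motif was in 0 of the 14 windows of the members and in 2.92% of all windows. The Gata3 window was 70.0% G and C with 19 CpG pairs, and that of Hand2 49.2% with 15, against medians of 52.4% and 6 over all windows.

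Gsc (chromosome 12, 104471209 to 104473236), a homeobox gene required for the malleus and the angular process of the jaw, was the most uneven member of DKO. Its levels were 46.1, 49.7 and 24.03 CPM in DKO libraries and 41.2, 35.6 and 31.9 CPM in control libraries. DKO replicates 1 and 2 lay above all controls and DKO replicate 3 below all of them. For all 6 libraries the log2 fold change was 0.14 (SE 0.27, 95% interval -0.49 to 0.77; edgeR adjusted p = 0.811). It was 0.40 without DKO replicate 3 (edgeR adjusted p = 0.0741) and -0.049 without DKO replicate 2.

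Barx1 (chromosome 13, 48663036 to 48666507), a homeobox gene of the proximal molar field and of the maxillary and mandibular mesenchyme, also had its lowest DKO value in replicate 3. It measured 161, 150.3 and 109 CPM in DKO and 116, 137 and 118 CPM in controls. DKO replicates 1 and 2 exceeded every control, and replicate 3 was the lowest of all 6. Its log2 fold change was 0.18 (SE 0.14, 95% interval -0.15 to 0.51; edgeR adjusted p = 0.506), and 0.33 without DKO replicate 3 (edgeR adjusted p = 0.0702).

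DKO replicate 3 was the lowest of its group in 7 of the 10 members (Ednra, Plcb3, Mef2c, Hand2, Gsc, Gata3 and Barx1), and highest in the other 3. Among the controls, replicate 3 was lowest in 6 members and replicate 1 in 4. Within the DKO group the coefficient of variation ran from 5.12% for Hand1 to 34.8% for Gsc. In controls it was 5.53% for Ece1 and 37.4% for Edn1 at the extremes, with 27.7% for Mef2c. The spread of Gsc, Barx1 and Ednra in DKO lay mostly in replicate 3, and none of them was called without it. DKO replicate 3 is also the DKO library with the most Ehmt1 and Ehmt2 transcript, and the part of this in the members' values was not tested.

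**Figure D4:**
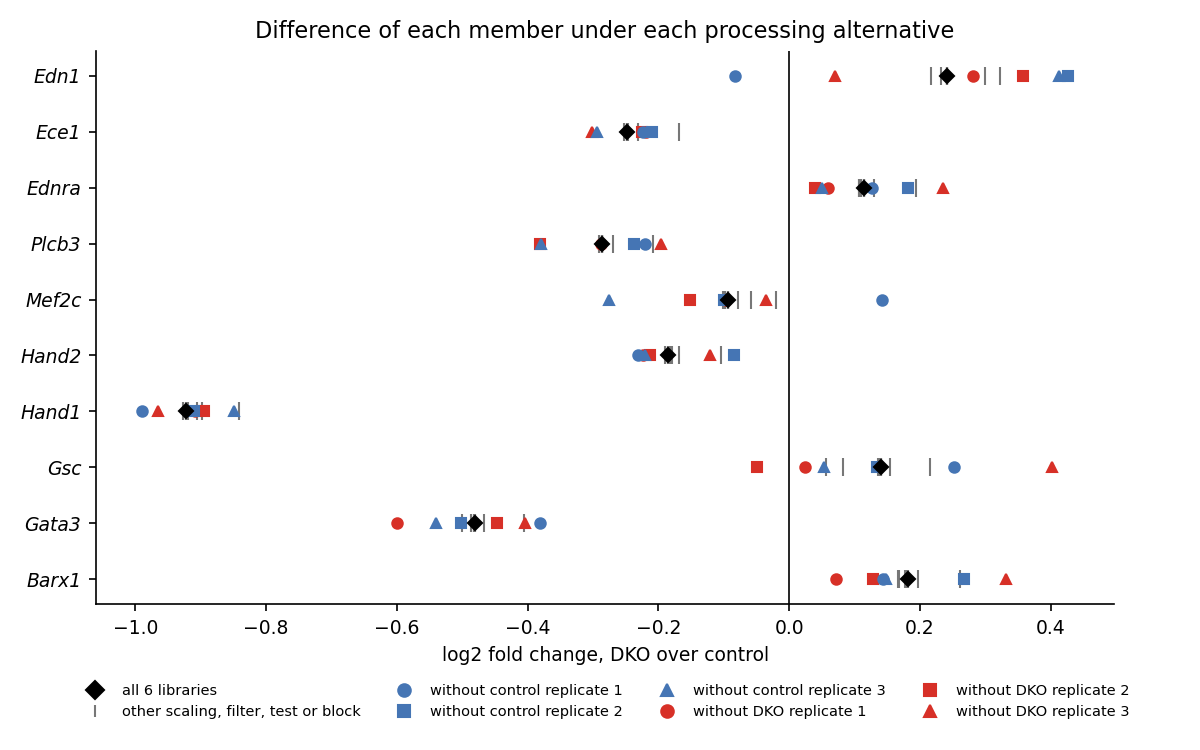
Log2 fold change of DKO over control (horizontal axis) of each member in the fit to all 6 libraries (diamond), under other scalings, filters, tests or a block (ticks), and with each library left out (coloured symbols). Hand1 stays between -0.99 and -0.84, while Edn1, Mef2c and Gsc each cross 0 in 1 fit.

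Ratios of members in the same library do not depend on scaling, and 6 were formed after the values were seen, 4 of them over Hand2. The log2 ratio of Hand1 to Hand2 counts was -3.35, -3.36 and -3.03 in DKO and -2.56, -2.67 and -2.30 in control libraries. All DKO libraries lay below all controls, with a difference of -0.74 (exact permutation p = 0.1, the smallest that 3 against 3 can give; 0.15 adjusted over the 6 ratios). Barx1 over Hand2 was higher by 0.35 in DKO, Plcb3 over Ednra differed by -0.39, and Hand2 over Ednra by -0.29, each without overlap and with the same p. Gata3 over Hand2 (-0.30, exact permutation p = 0.2) and Gsc over Hand2 (0.26, p = 0.4) overlapped.

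**Figure D5:**
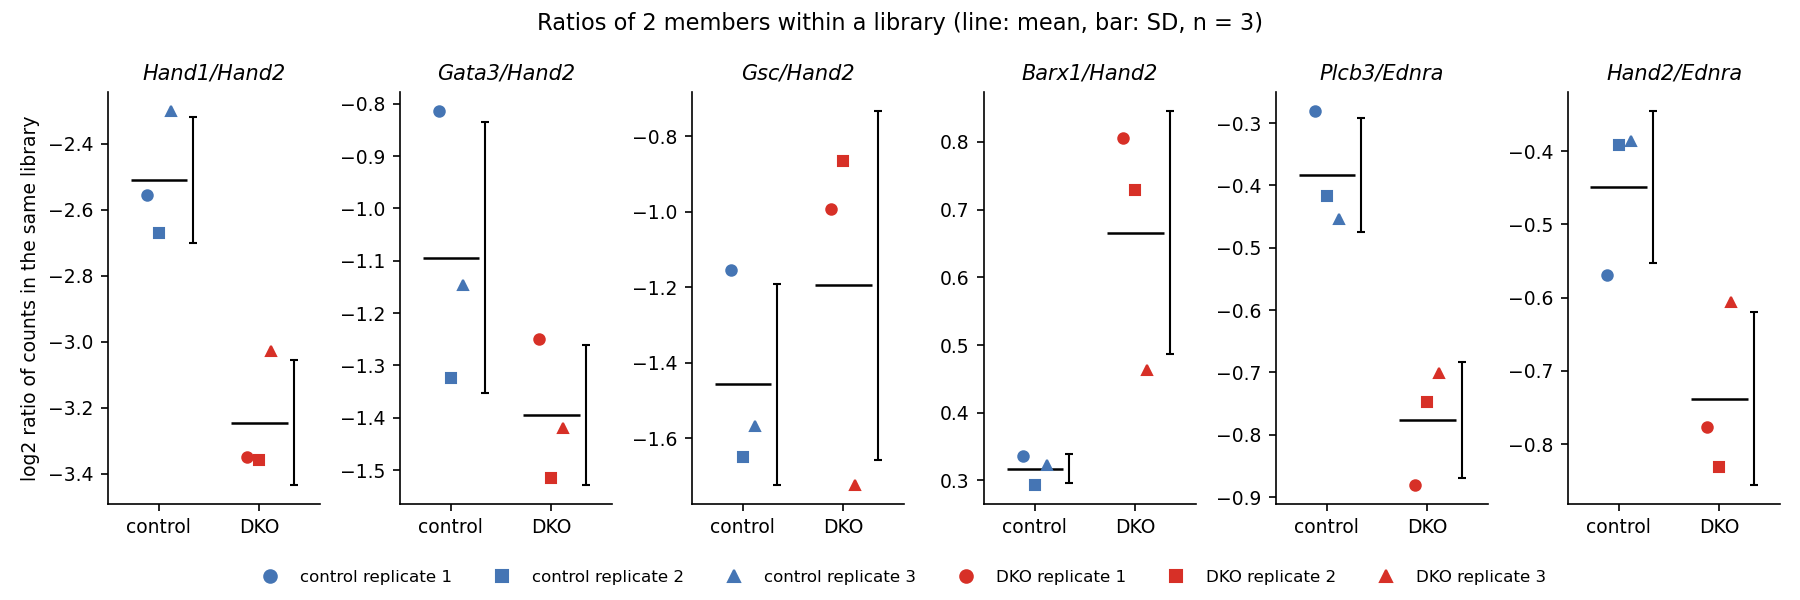
Log2 ratio of the counts of 2 members in the same library (vertical axes, each with its own range and not starting at 0) for the 3 control and 3 DKO libraries, with the mean as a line and the SD as a bar. Hand1 over Hand2, Plcb3 over Ednra and Hand2 over Ednra are lower and Barx1 over Hand2 is higher in every DKO library, and the other 2 ratios overlap.

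Most further genes of distal identity had negative values, without a call. Of 20 other distal arch genes, 0 were called by edgeR (0 higher and 5 lower at an unadjusted p below 0.05; limma-voom 0, DESeq2 1 lower, Msx2), and 15 had negative log2 fold changes (51.2% of all tested genes were negative), with a median of -0.19. In 4 of them every DKO library lay below every control, against 12.7% of all tested genes, and in 0 above, against 14.5%. Dlx5, which with Dlx6 switches on Hand2 in response to endothelin, measured 73.6, 75.8 and 72.5 CPM in DKO and 91.2, 111 and 77.7 CPM in controls (log2 fold change -0.33; edgeR adjusted p = 0.17). Dlx6 had a log2 fold change of -0.24 (edgeR adjusted p = 0.334), Dlx3 -0.49 (0.149) and Msx2, a BMP target of the distal arch, -0.46 (0.0841). These 4 were chosen after their values were seen; the most abundant of the list, Prrx1 and Alx4, had -0.31 and 0.03.

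No gene of the proximal arch list was called by edgeR. Among its 15 genes, 9 had negative log2 fold changes, where 51.2% of all tested genes did. In 3 of the 15 every DKO library lay below every control, against 12.7% of all tested genes, and in 0 above, against 14.5%. Of 15 proximal arch genes, 0 were called by edgeR (0 higher and 3 lower at an unadjusted p below 0.05; limma-voom 0, DESeq2 1 lower, Meis2), with a median of -0.13. The most abundant were Meis2 (log2 fold change -0.33; edgeR adjusted p = 0.126) and Nr2f1 (0.01; adjusted p = 0.957). Pou3f3, an upper jaw gene, stood at -0.32 on the log2 scale (edgeR adjusted p = 0.229) and was named after its value was seen.

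BMP signals also feed Hand1, Hand2 and Msx genes from the distal epithelium. Of 16 genes of this input, 0 rose and 1 fell, the receptor gene Bmpr1a, which measured 219, 236 and 227 CPM in DKO and 285, 299 and 283 CPM in controls (-0.35 on the log2 scale, SE 0.07; adjusted p = 0.0349 by edgeR). The call held in 1 of 6 fits that left out 1 library, and was lost with the replicate block (edgeR adjusted p = 0.0567) and with scaling by library size alone (0.0659). In the list, 15 of 16 log2 fold changes were negative (51.2% of all tested genes were), with a median of -0.17. At an unadjusted p below 0.05, 5 genes were lower (9.89% of all tested genes) and 0 higher (11%). DESeq2 called 2 lower and limma-voom 1 lower. The 5 include Nog, the gene of a BMP antagonist (-0.62). The BMP target genes Id1, Id2 and Id3 had -0.15, -0.18 and 0.09 (edgeR adjusted p = 0.713, 0.571 and 0.832). The strength of BMP signalling in these cells was not tested. The ligand gene Bmp4, of the distal arch list, had -0.17 (edgeR adjusted p = 0.73). Of 7 tested dimer partners of Hand proteins and related GATA genes, 0 were called (0 at an unadjusted p below 0.05; DESeq2 and limma-voom 0), with Tcf12 at -0.16 and Tcf3 at -0.09. The 11 arch crest markers, which the distal and proximal lists partly share, had a median of -0.17, and 9 of 11 were negative. Of them 0 were called by edgeR (0 higher and 3 lower at an unadjusted p below 0.05), 0 by limma-voom and 1 lower by DESeq2, Tfap2a. Smooth muscle markers summed to 47.0 to 68.8 CPM in DKO and 38.9 to 47.7 CPM in controls. Of their 6 log2 fold changes 1 was negative, with a median of 0.54. At an unadjusted p below 0.05, 2 were higher (11% of all tested genes) and 0 lower. In 3 every DKO library lay above every control, against 14.5% of all tested genes. EdgeR called 1 of the 6 higher, Actg2 (log2 fold change 2.21, edgeR adjusted p = 0.0448). That call held in 1 of 6 fits that left out 1 library and was lost with limma-voom (adjusted p = 0.0970), the replicate block (0.0522), the 1 CPM filter (0.0518) and the test without robust estimation (0.0502), while DESeq2 called 1 of the 6 higher. Blood markers summed to 5.98 to 76.8 and 29.03 to 53.4 CPM, with 0 of 4 tested called (1 lower at an unadjusted p below 0.05 and by DESeq2, 0 by limma-voom). The part of these cells in the members' values was not tested.

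Genes beside the members were examined as well. Of the 40 tested genes that flank them, 2 on each side, 3 were called higher and 0 lower by edgeR, against 2.19% and 0.818% of all tested genes, and their median log2 fold change was -0.08. None of the 4 that flank Hand1 was called, and the nearest on each side, Sap30l at 18.1 kb and Larp1 at 141 kb, had log2 fold changes of -0.0034 and -0.20 (edgeR adjusted p = 0.986 and 0.151). The called ones were Scrg1, 131 kb from Hand2 (log2 fold change 1.49; edgeR adjusted p = 0.0446), Phactr1, 372 kb from Edn1 (0.44; 0.0303), and the interferon-induced gene Ifi27, 1031 kb from Gsc (2.71; 0.024). Each of these 3 calls held in at most 2 of 6 fits that left out 1 library.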

How the data were processed

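The 6 libraries hold polyadenylated RNA of sorted arch cells, prepared with a stranded kit per the labels' protocols. The values are deposited whole-number counts per gene symbol, made by the authors with Trim Galore, STAR 2.7.10a and Picard on mm10, per the submitters' processing notes. For the counting program, its strand setting and annotation, and the handling of duplicates: not given in the sources used here. Columns named WT were read as the controls, from the titles. Counts were fitted with edgeR 4.0.16 in R 4.3.3: filterByExpr by group (minimum count 10, minimum total 15), TMM, and the robust quasi-likelihood test, 2-sided, with group as the only term. The standard error is the log2 fold change divided by the root of F. The pipeline was tested on simulated counts. DESeq2 1.42.0, limma 3.58.1 (voom), other scalings and filters, a block and each library left out were tried as alternatives. If replicates are not separate embryos, p-values measure only the spread between these samples. No 2 libraries agreed within sampling noise.

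Members and lists were chosen with earlier results of these data known. Named are all members, Ehmt1 and Ehmt2, up to 4 called genes of each list by adjusted p or else the most abundant 2, called flanking genes, and the 3 profiles nearest Hand1; every other gene named was chosen after its values were seen. Gene positions are those of RefSeq GRCm38.p6, and exon lengths those of GENCODE M21. The planned alignment of Hand1 and Hand2 proteins was not run.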

Additional observations from a re-analysis of the deposited data

How the results depend on the processing

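The direction of Hand1, Ece1, Ednra, Plcb3, Hand2, Gata3 and Barx1 was the same in all 15 alternatives. Edn1 (-0.083) and Mef2c (0.14) turned without control replicate 1, and Gsc (-0.049) without DKO replicate 2. With 1 library left out they ranged from -0.083 to 0.43 (Edn1), from -0.28 to 0.14 (Mef2c) and from -0.049 to 0.40 (Gsc); none of these was called in any fit. Hand1 lost its call against a 1.5-fold threshold (adjusted p = 0.168) and without DKO replicate 1 (log2 fold change -0.91, adjusted p = 0.0502), and Ehmt1 against that threshold (adjusted p = 0.277), which asks for more than a difference from 0. Gata3 gained a call with DESeq2 (adjusted p = 0.0111) and with the replicate block (-0.48, adjusted p = 0.0197). Members called lower thus numbered 2 with DESeq2, 2 with the block and 0 against 1.5-fold, and 0 to 1 with 1 library left out. Members called higher were 0 in every fit.

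Over all genes, 319 higher and 119 lower calls became 624 and 482 with DESeq2, 104 and 18 against 1.5-fold, and 423 and 196 with the replicate block. With 1 library left out they ranged from 110 to 597 higher and from 21 to 509 lower, the largest counts without DKO replicate 3. The cause was not tested. Scaling by library size (416 higher, 80 lower) moved the share of higher calls from 72.8% to 83.9%, and the median of all genes by 0.08. Deviations of same-numbered libraries correlated at 0.06, -0.03 and 0.38, and DKO replicate 2 correlated best with another number, so the numbers were not taken to pair samples. Edn1, at 38 to 62 counts per group, was not tested under the 1 CPM filter, and its interval was the widest of the members.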
